A study of Mus musculus with 8 samples.

Results

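The renin-angiotensin and kinin system was examined through 9 genes, Ren1, Agt, Ace, Agtr1a, Agtr1b, Agtr2, Mme, Bdkrb1 and Bdkrb2, in whole embryonic mouse kidneys (day 14.5). The members are all the probes whose RefSeq accession belongs to one of these genes, which gave 12 of the 56605 probes on the array, with 1 probe for 6 genes and 2 probes each for Agtr1b, Mme and Bdkrb2. Of the 9 genes, 8 were bright enough to be tested, among 16013 genes tested in all, and Agt was not. Wild-type kidneys were compared with kidneys from a conditional Mdm4 knockout made with a Hoxb7-Cre transgene. Mdm4 is an inhibitor of p53, and the Hoxb7 promoter drives Cre in the ureteric bud and in the collecting duct epithelium that grows out of it, so that the stroma, vessels, podocytes and nephron tubules of the mutant keep the gene. The labels name no strain and no other allele, and leave unsaid whether embryos were pooled for an RNA. On 2-colour Agilent arrays, 4 wild-type RNAs were each set against 1 of 4 mutant RNAs, and every such pair was run on 2 arrays, the second with reversed labelling. The p-values and the standard errors given as ± reflect how these 4 pairs differ from each other, which can include technical variation. In limma, the spread of each gene between the pairs is moderated towards the spread of all genes tested.

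Renin, encoded by Ren1, cuts angiotensinogen, encoded by Agt, and the angiotensin-converting enzyme Ace trims the product to angiotensin II, which acts on the type 1 receptors (Agtr1a and Agtr1b, separate genes in rodents) and the type 2 receptor (Agtr2). The kinin system runs beside it: bradykinin acts on the receptors encoded by Bdkrb2 and, for its shortened forms, Bdkrb1, and both Ace and the membrane peptidase neprilysin, encoded by Mme, break bradykinin down. In the embryonic kidney renin is made by cells of the developing arteries that come from Foxd1-positive stroma, Agtr2 is abundant in mesenchyme, and loss of the system leaves the renal papilla poorly formed. Bdkrb2 has been described as a gene whose transcription in the developing kidney is promoted by p53.

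The start-site regions of the genes the results turn on are shown so that the members can be told apart by sequence. RefSeq windows from 250 bases before to 50 bases after a start were found for 7 of the 9 members, in 10 windows. Those of Ren1 (GRCm38.p6, chr1:133350424-133350723, plus strand), Agtr1b (chr3:20367128-20367427, minus strand), Agtr2 (chrX:21484374-21484673, plus strand), the middle one of 3 for Mme (chr3:63295622-63295921, plus strand) and Bdkrb2 (chr12:105562922-105563221, plus strand) are printed 5′ to 3′, with matches to the TATA box letters TATAAA, to the CCAAT box, to the GC box letters GGGCGG and to the p53 half-site motif, each searched on both strands, in capitals.
Ren1: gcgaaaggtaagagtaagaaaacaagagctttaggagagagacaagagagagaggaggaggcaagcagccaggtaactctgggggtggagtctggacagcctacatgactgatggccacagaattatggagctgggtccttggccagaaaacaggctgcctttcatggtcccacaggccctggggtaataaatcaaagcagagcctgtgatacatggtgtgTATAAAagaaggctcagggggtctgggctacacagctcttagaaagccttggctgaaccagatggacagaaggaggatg
Agtr1b: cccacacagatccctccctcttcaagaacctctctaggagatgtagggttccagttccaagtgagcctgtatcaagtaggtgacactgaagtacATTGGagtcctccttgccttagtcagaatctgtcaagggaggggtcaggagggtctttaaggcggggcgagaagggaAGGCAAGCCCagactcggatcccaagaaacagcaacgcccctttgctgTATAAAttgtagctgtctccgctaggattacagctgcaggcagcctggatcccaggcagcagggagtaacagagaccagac
Agtr2: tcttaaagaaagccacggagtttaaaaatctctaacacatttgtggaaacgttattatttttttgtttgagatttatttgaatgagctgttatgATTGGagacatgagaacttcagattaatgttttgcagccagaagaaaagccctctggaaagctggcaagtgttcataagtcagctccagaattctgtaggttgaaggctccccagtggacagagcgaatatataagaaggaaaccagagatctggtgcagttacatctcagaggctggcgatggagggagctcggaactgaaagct
Mme: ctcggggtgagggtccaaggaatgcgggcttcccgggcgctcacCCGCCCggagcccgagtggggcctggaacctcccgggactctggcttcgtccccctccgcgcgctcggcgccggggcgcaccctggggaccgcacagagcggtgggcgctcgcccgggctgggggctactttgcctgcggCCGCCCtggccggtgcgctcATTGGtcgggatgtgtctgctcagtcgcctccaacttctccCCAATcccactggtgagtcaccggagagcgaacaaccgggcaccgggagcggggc
Bdkrb2: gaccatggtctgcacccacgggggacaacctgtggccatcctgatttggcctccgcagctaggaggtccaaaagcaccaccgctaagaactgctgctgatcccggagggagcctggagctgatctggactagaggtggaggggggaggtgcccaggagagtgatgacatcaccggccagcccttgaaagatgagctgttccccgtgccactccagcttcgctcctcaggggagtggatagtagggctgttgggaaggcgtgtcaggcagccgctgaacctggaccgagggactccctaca
Ren1 held a TATAAA match that began 29 bases before its start, and Agtr1b held one that began 31 bases before it. TATAAA occurred in 13.6% of the 32851 windows of all genes. The printed Mme window held 2 CCAAT and 2 GGGCGG matches, motifs found in 37.4% and 35.7% of all windows. The first Mme window held 0 and 1 of these, and the third 1 and 2. Which start the Mme probes measure was not tested. The p53 half-site motif, found in 8.36% of all windows, had 1 match in the Agtr1b window and 0 in the other 4 printed. These are matches of letters within a short window and show no binding.

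The arrays as a whole set the frame for these genes. Between 60.7% and 70.2% of the probes stood well above background in 1 channel of an array, and the standard errors of the tested genes had a median of 0.07 on the log2 scale. At a limma adjusted p of 0.05, 0% of the 16013 genes were called, and at an unadjusted p under 0.05 there were 7.01% higher and 3.6% lower in the mutant. The brightest of 4 Mdm4 probes had log2 ratios of mutant over wild type of -0.03, -0.06, -0.28 and -0.35 in pairs 1 to 4. Where these probes lie with respect to the deletion is not stated in the labels, so they do not check the genotype. Of 10 transcripts activated by p53, 7 were higher in the mutant in all 4 pairs, as were 12.1% of all genes. The mean of 3 Y-linked genes, Ddx3y, Eif2s3y and Kdm5d, was a log2 ratio of 3.10, 1.53, -1.72 and 3.10 in pairs 1 to 4, so the sex makeup of the RNAs differed within each pair, and in the opposite direction in pair 3.

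The design asks whether expression of the system differs in kidneys whose ureteric lineage has lost Mdm4. No member passed the threshold, as was the case for all genes on the array. As processed here, Mme differed most, at 1.36 times the wild-type level. The receptor genes Agtr1b and Agtr2 followed, at 1.19 and 1.17 times. Ren1, Ace, Agtr1a, Bdkrb1 and Bdkrb2 had mean ratios between 0.97 and 1.12 times, and each differed in sign between pairs. The mean log2 ratio was above 0 for 7 of the 8 tested members, against 53.9% of all genes, and the median over the members was 0.13, against 0.01 over all genes. Mme and Agtr1b were higher in the mutant in all 4 pairs, a pattern seen in 12.1% of all genes, and 0 members were lower in all 4 pairs, seen in 7.84% of genes. The same 2 genes were the members with an unadjusted limma p under 0.05. No member kept the same sign on all 8 single arrays, which 3.35% of genes did upward and 1.31% downward. In pair 4 all 8 tested members were above 0, in pair 1 7, in pair 3 5 and in pair 2 3.

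**Figure D1:**
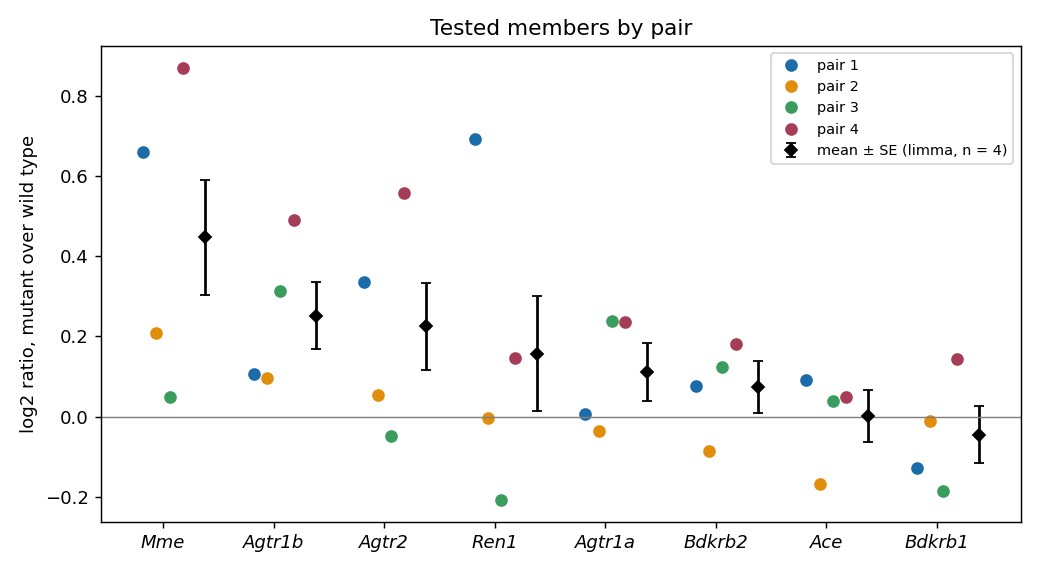
Log2 ratio of mutant over wild type (vertical axis) for the 8 tested members (horizontal axis), with 1 coloured point per pair and a black diamond for the mean with its standard error from limma (n = 4). All 4 points of Mme and of Agtr1b lie above 0, and Ren1 has 1 point at 0.69 with the others between -0.21 and 0.15.

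Ren1, which encodes the enzyme that starts the cascade, was well above background in 16 of 16 channels. Its log2 ratios were 0.69, -0.0021, -0.21 and 0.15 in pairs 1 to 4. The gene was higher in the mutant in pair 1 alone by more than the spread of the other pairs, and the mean was 0.16 ± 0.14 (SE, n = 4; limma adjusted p = 0.696). That mean also depended on background removal, at 0.21 with no background correction and 0.28 ± 0.26 in Agilent's processed signals. As log2 levels of the probe, normalised between arrays and averaged over both dyes, the wild-type RNAs stood at 7.38, 7.17, 7.40 and 7.02 and the mutant RNAs at 8.07, 7.17, 7.19 and 7.17. The mutant RNA of pair 1 was thus above all the others, 3 mutant RNAs lay within the wild-type range, and without pair 1 the mean ratio was -0.02. Whether this probe also binds the transcript of Ren2, a close copy that some strains carry, was not tested.

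Agt, the gene of the substrate, was too dim to test. Its probe was well above background in 4 of 8 wild-type and 4 of 8 mutant channels. Its log2 ratios were 0.05, -0.21, 0.11 and 0.12 in pairs 1 to 4 (mean 0.02, SD 0.15), and the array means had opposite signs in the 2 dye orientations. Agt therefore entered no test in the fit as reported, and signal near background limits what these ratios can show.

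Ace, the converting enzyme of endothelium and proximal tubule, showed the smallest difference of the tested members. Its log2 ratios were 0.09, -0.17, 0.04 and 0.05 in pairs 1 to 4. The mean was 0.0027 ± 0.07 (limma adjusted p = 0.991), and the 95% interval ran from -0.16 to 0.16. In Agilent's processed signals the Ace mean was 0.02 ± 0.10. Between RNAs the gene varied more than between genotypes: wild-type levels were 7.35, 7.23, 7.09 and 6.93 and mutant levels 7.44, 7.06, 7.13 and 6.98, with the RNAs of pair 1 highest in each genotype.

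Agtr1a, the main type 1 receptor gene of the kidney, was well above background in all channels. Its log2 ratios were 0.0073, -0.04, 0.24 and 0.24 in pairs 1 to 4, near 0 in pairs 1 and 2 and higher in the mutant in pairs 3 and 4. The mean was 0.11 ± 0.07 (limma adjusted p = 0.600; 95% interval -0.06 to 0.29), and it was 0.07 without pair 3 and 0.07 without pair 4. The value depended on the dye, with a mean of 0.29 over the arrays whose mutant RNA carried Cy5 and -0.06 over those whose mutant RNA carried Cy3. Wild-type levels ranged from 8.48 to 9.16 and mutant levels from 8.71 to 9.17, so the genotypes overlapped across most of their range.

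Agtr1b, the other type 1 receptor gene of rodents, was measured near the limit of the array, with the tested probe well above background in 6 of 8 wild-type and 8 of 8 mutant channels. Its log2 ratios were 0.11, 0.10, 0.31 and 0.49 in pairs 1 to 4, higher in the mutant in every pair and on 7 of 8 arrays. The mean was 0.25 ± 0.08 (limma adjusted p = 0.425; 95% interval 0.05 to 0.45 before adjustment). Wild-type levels were 6.93, 6.96, 6.82 and 6.67 and mutant levels 7.04, 7.06, 7.13 and 7.16. All 4 mutant RNAs lay above all 4 wild-type RNAs, which held for 3.3% of all genes. By its brighter probe, Mme was the other member of which this was true. Of the 8, 0 had all mutant RNAs below the wild type, which held for 1.52% of genes. The size of the ratio depended on how background was removed, with 0.36 at a normexp offset of 16 and 0.60 in Agilent's processed signals (limma adjusted p = 0.410). The second Agtr1b probe was well above background in 0 of 16 channels and gave no usable ratio.

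Agtr2, the X-linked type 2 receptor gene, gave log2 ratios of 0.34, 0.05, -0.05 and 0.56 in pairs 1 to 4. It was higher in the mutant in pairs 1 and 4 and near 0 in pairs 2 and 3, with a mean of 0.23 ± 0.11 (limma adjusted p = 0.518; 95% interval -0.04 to 0.49). Wild-type levels were 12.19, 12.27, 12.30 and 12.05 and mutant levels 12.52, 12.33, 12.25 and 12.61. The mutant RNA of pair 3 lay below the wild-type RNAs of pairs 2 and 3, so the groups overlapped. Without pair 4 the mean was 0.11, and without pair 3 it was 0.32.

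**Figure D2:**
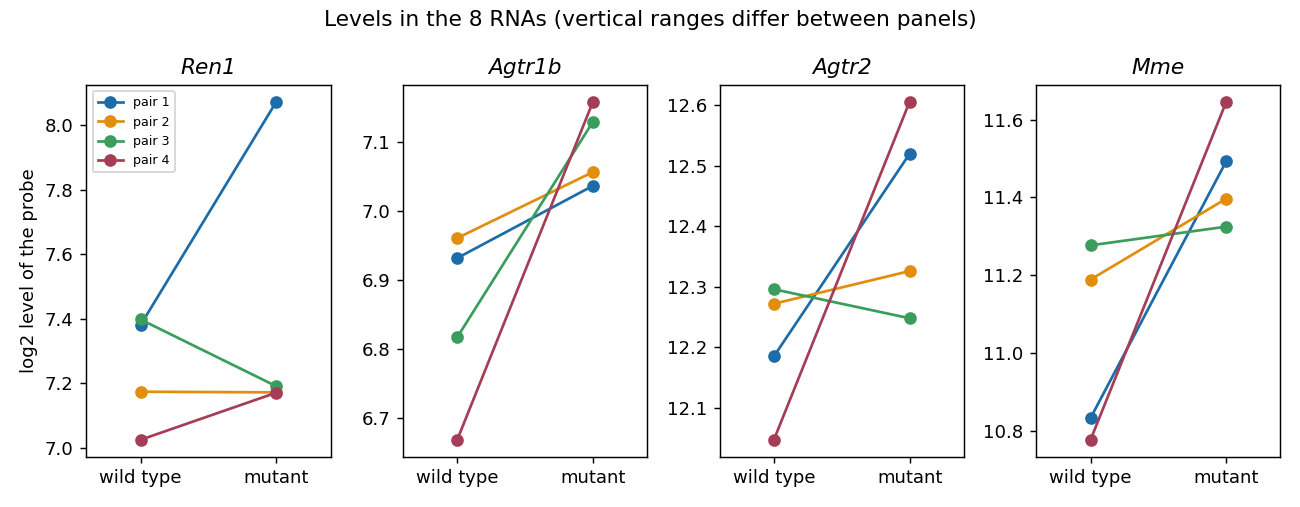
Log2 level of the tested probe of Ren1, Agtr1b, Agtr2 and Mme in the 4 wild-type and 4 mutant RNAs, with a line joining the RNAs of a pair. Levels of different probes are not comparable, and the vertical ranges differ between panels. In Agtr1b and Mme all mutant points lie above all wild-type points, and in Ren1 the mutant RNA of pair 1, at 8.07, stands apart.

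As processed here, Mme, the gene of neprilysin, had the largest mean difference and the smallest limma p of the members. In Agilent's processed signals Agtr1b led on both, at 0.60 against 0.45 for Mme. The unadjusted limma p there was 0.0074 for Agtr1b and 0.029 for Mme. The brightest Mme probe gave log2 ratios of 0.66, 0.21, 0.05 and 0.87 in pairs 1 to 4, large in pairs 1 and 4 and small in pair 3. The mean was 0.45 ± 0.14 (limma adjusted p = 0.425; 95% interval 0.10 to 0.79 before adjustment). Wild-type levels were 10.83, 11.19, 11.28 and 10.78 and mutant levels 11.49, 11.40, 11.33 and 11.65. The mutant RNAs lay in a narrower band (SD 0.14) than the wild-type RNAs (SD 0.25) and all above them, although the lowest mutant and the highest wild-type RNA, both of pair 3, differed by 0.05.

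The probes of Mme did not give the same picture. The second probe, dimmer but well above background in 16 of 16 channels, gave 0.58, -0.04, -0.06 and 0.27 in pairs 1 to 4 (mean 0.19, SD 0.30). Both probes were higher in the mutant in pairs 1 and 4, and only the brighter was above 0 in pairs 2 and 3. By the second probe the genotypes overlapped, with wild-type levels from 9.16 to 9.56 and mutant levels from 9.48 to 9.75. With the probes averaged, the Mme ratio was 0.32 ± 0.12 (limma adjusted p = 0.459), and Agtr1b was then the single member with 1 sign in every pair.

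The kinin receptor genes showed no difference beyond the spread between pairs. Bdkrb2, the receptor for bradykinin itself, gave log2 ratios of 0.08, -0.09, 0.12 and 0.18 in pairs 1 to 4. It was below 0 in pair 2 alone, with a mean of 0.07 ± 0.06 (limma adjusted p = 0.687; 95% interval -0.08 to 0.23), and 7 of 8 arrays were above 0. Without pair 2 the Bdkrb2 mean was 0.13, and without pair 4 it was 0.04. This tested probe carries a predicted accession, and the probe on the curated Bdkrb2 accession was well above background in 0 of 16 channels. Bdkrb1, the receptor for shortened kinins, gave -0.13, -0.0098, -0.18 and 0.14 in pairs 1 to 4. It was lower in pairs 1 and 3 and higher in pair 4, with a mean of -0.04 ± 0.07 (limma adjusted p = 0.837; 95% interval -0.22 to 0.13), and its array means were -0.15 with Cy5 on the mutant RNA and 0.06 with Cy3 on it.

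**Figure D3:**
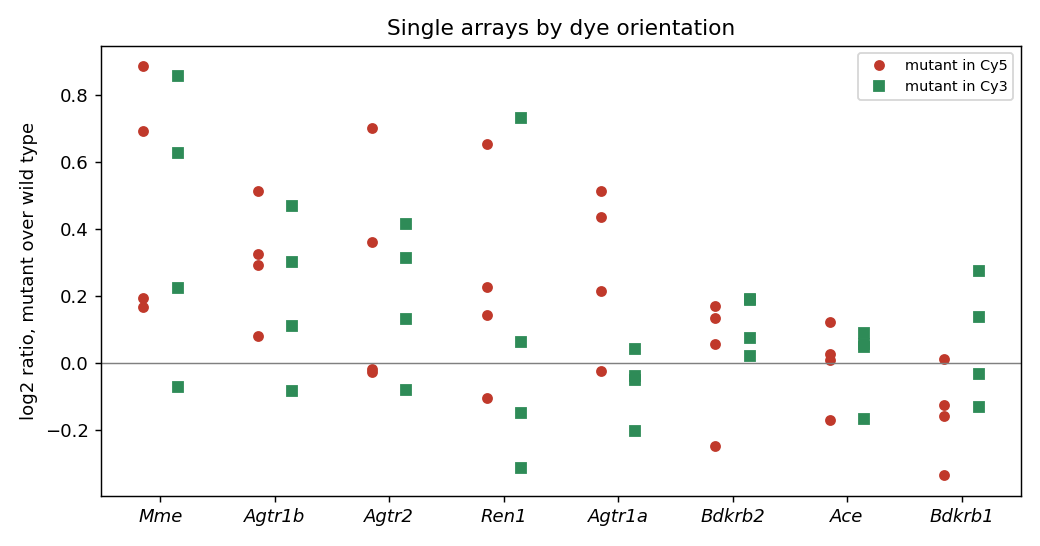
Log2 ratio of mutant over wild type on single arrays for the 8 tested members, with 4 arrays with mutant RNA in Cy5 (circles) and 4 with it in Cy3 (squares). The orientations have means of opposite sign for 3 members, Agtr1a, Ace and Bdkrb1, whereas for Mme they are at 0.48 and 0.41.

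Across the 8 RNAs the members fell into different patterns. The level of Mme went with that of Agtr2 (Pearson r = 0.911 over 8 RNAs) and of Agtr1b (r = 0.776). The level of Agtr1a went with those of Bdkrb2 (r = 0.983) and Ace (r = 0.912) and little with that of Mme (r = 0.149). These are descriptions over 8 RNAs, in which the RNAs of a pair shared their arrays and the normalisation. Bdkrb2, Ace and Agtr1a each had their highest level in pair 1 in both genotypes and their lowest in pair 4. The wild-type SD over RNAs was 0.30 for Agtr1a and 0.20 for Bdkrb2, larger than their mean differences between genotypes of 0.11 and 0.07. Bdkrb1 went with no other member (r between -0.137 and 0.168).

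By the same measure, the genes closest to Mme were Rmdn2 (r = 0.975), Syt13 (r = 0.962) and Prmt2 (r = 0.955). Those closest to Ren1 were Adcy2, an adenylyl cyclase gene (r = 0.983), Angptl7 (r = 0.980) and Stmn3 (r = 0.978). For the Ren1 neighbours r was 0.883, 0.845 and 0.852 over the 7 RNAs without the mutant RNA of pair 1. For the Mme neighbours r was between 0.962 and 0.972 over the same 7 RNAs. All these genes were picked for the highest r among the genes tested over these RNAs. High values were thus built in, and those over 7 of the RNAs are no separate check.

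A list of 24 further genes of the system held the prorenin receptor gene Atp6ap2, the angiotensin peptidase gene Enpep, the kininogens and kallikreins and the kinin-degrading peptidases, and 19 of these were tested. None was called by limma, 10 were above 0 and 9 below, and the median was 0.05, against 0.01 over all genes. In all 4 pairs 3 of the 19 were higher and 3 were lower, against 12.1% and 7.84% of all genes with these patterns. The oligopeptidase gene Thop1 was at -0.05, -0.09, -0.26 and -0.41 in pairs 1 to 4 (mean -0.20 ± 0.08, limma adjusted p = 0.452), and Hsd11b2, which protects the mineralocorticoid receptor from glucocorticoids, at -0.12, -0.14, -0.14 and -0.62 (mean -0.26 ± 0.10, limma adjusted p = 0.452). Both were lower in every pair, by most in pair 4. The carboxypeptidase gene Cpm, whose product removes the last residue of kinins, was higher in every pair, at 0.16, 0.07, 0.10 and 0.27 (mean 0.15 ± 0.06, limma adjusted p = 0.469). Mas1, Klk1, Klkb1, F12 and Nr3c2 were too dim to test.

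Genes of the renin cell lineage and the vessel wall formed a list of 24, all tested, of which 0 were called by limma. Of these, 16 were above 0, against 53.9% of all genes, and the median was 0.05, against 0.01. In all 4 pairs 7 were higher and 0 were lower, patterns that 12.1% and 7.84% of all genes showed. The 8 below 0 were Tagln, Acta2, Cspg4, Myh11, Rgs5, Notch3, Mcam and Cnn1, all of the vessel wall. Other vessel-wall genes, Des, Gja4, Gja5 and Pdgfrb, were above 0, at means of 0.05, 0.02, 0.08 and 0.15. Tagln (mean -0.25, limma adjusted p = 0.487) and Acta2 (mean -0.24, limma adjusted p = 0.582) were the lowest, and Cnn1 was at -0.03. Tagln was above 0 in pair 3 (0.10) and Acta2 in pair 1 (0.34), so signs in the list were mixed. Tbx18, a transcription factor gene of mural and ureteric mesenchyme, was at 0.58, 0.90, 0.18 and 0.62 in pairs 1 to 4 (mean 0.57 ± 0.11, limma adjusted p = 0.304). Foxd1, which marks the stromal progenitors of renin cells, was at 0.31, 0.22, 0.09 and 0.43 (mean 0.26 ± 0.07, limma adjusted p = 0.398), and Ebf1 at 0.14, 0.19, 0.15 and 0.16 (mean 0.16 ± 0.05, limma adjusted p = 0.425). Tbx18, Foxd1 and Ebf1 were higher in every pair. Akr1b7, a gene of renin cells and of the adrenal cortex that was chosen after its values were seen, was at 0.27, 0.18, 0.24 and 1.94, again higher in every pair (mean 0.66 ± 0.30, limma adjusted p = 0.502). Ren1 was high in pair 1 alone, where Akr1b7 was at 0.27.

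Markers of the cell types that could carry these transcripts moved between the pairs too. Their lists were chosen with earlier results of these data known, so counts of signs within them are descriptions only. The mean over 8 ureteric epithelium markers was -0.78, -0.16, -0.03 and -0.67 in pairs 1 to 4, with 8 of 8 below 0. The mean over 8 stromal markers was 0.35, 0.30, 0.14 and 0.46, with 8 of 8 above 0, against 53.9% of all genes. Mme and Agtr2 were thus highest in pairs 1 and 4, where the ureteric list was lowest and the stromal list and the Y-linked genes were highest. Their part in the Mme and Agtr2 ratios was not tested. With the Y-linked difference as a covariate, Mme was at 0.22 ± 0.11 (limma adjusted p = 0.755) and Agtr2 at 0.07 ± 0.10 (limma adjusted p = 0.898). With this covariate Agtr1b was at 0.26 ± 0.11 (limma adjusted p = 0.738). Because the Y-linked genes and these lists had their extremes in the same pairs, this fit cannot separate the sex difference from the lists.

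The proximal tubule markers, whose cells express Ace, Agtr1a and Mme, had means of 0.07, -0.13, 0.38 and 0.27 in pairs 1 to 4, with 8 of 10 above 0 over the pairs. Podocyte markers had means of 0.25, 0.09, 0.55 and 0.57, with 8 of 8 above 0. Agtr1a and Agtr1b were highest in pairs 3 and 4, as these lists were, and the part of the lists in those ratios was not tested. As mean log2 levels, the proximal tubule list ranged from 8.52 to 9.17 in wild-type and from 8.90 to 9.24 in mutant RNAs, and the podocyte list from 10.53 to 11.29 and from 11.08 to 11.54. Stromal markers ranged from 13.65 to 14.15 and from 13.96 to 14.51, and ureteric markers from 12.02 to 12.42 and from 11.52 to 11.99. In whole kidneys, fewer cells of a type and less RNA per cell cannot be told apart. The 8 endothelial markers had a mean of 0.02, with 5 of 8 above 0, beside the Ace value of 0.0027. The 5 tested adrenal cortex markers were all below 0, at -0.13, -0.13, -0.07 and -0.32 in pairs 1 to 4, and the mean of 6 liver markers was -0.13, -0.48, 0.44 and 0.42. As a mean log2 level the adrenal list ranged from 8.51 to 8.85 in wild-type and from 8.19 to 8.74 in mutant RNAs. The 8 leukocyte markers were above 0 in mean for 8 of 8 genes (0.28, -0.0049, 0.23 and 0.27 by pair).

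**Figure D4:**
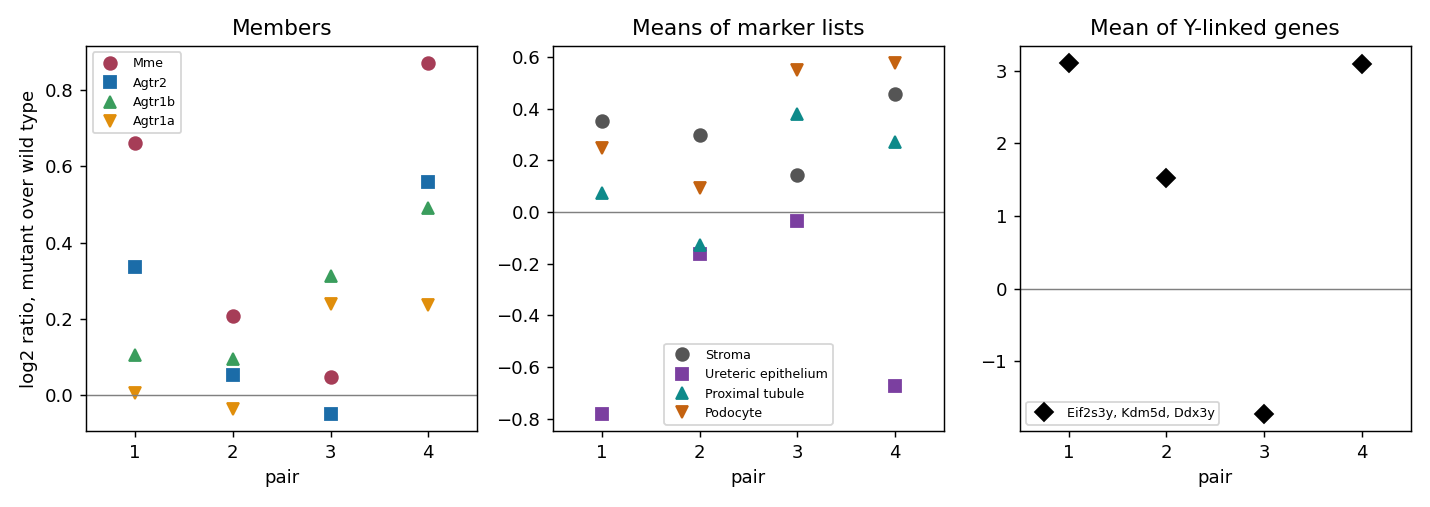
Log2 ratio of mutant over wild type in pairs 1 to 4 for 4 members (left), for the means of 4 marker lists (middle) and for the mean of 3 Y-linked genes (right), each panel with its own vertical range. Mme and Agtr2 are highest in pairs 1 and 4, where the ureteric list is lowest, whereas Agtr1a and Agtr1b are highest in pairs 3 and 4.

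**Figure D5:**
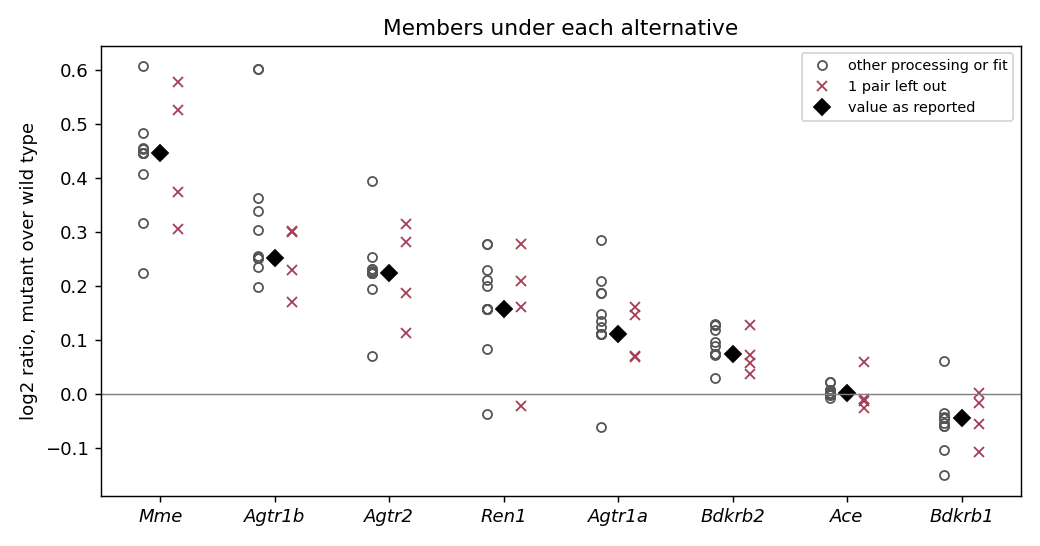
Log2 ratio of mutant over wild type of each tested member as reported (black diamonds), under other processing or another fit (open circles) and with 1 pair left out (crosses). Every value of Mme lies between 0.22 and 0.61 and every value of Agtr1b between 0.17 and 0.60, whereas those of Ace run from -0.03 to 0.06. The second Mme probe on its own, with a mean of 0.19, is not among these values.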

How the data were processed

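Intensities of 8 2-colour arrays were used as deposited by the authors: per the file headers, Agilent Feature Extraction 10.7.3.1 wrote median spot and local background intensities (the submitters' processing notes name 8.5.1.1). The deposited log10 ratios are Cy5 over Cy3, per the file headers. With limma 3.58.1 in R 4.3.3, background was corrected by normexp (offset 50), arrays were normalised by loess with control and outlier spots at weight 0, ratios were turned to mutant over wild type, and both arrays of each pair gave 1 averaged value (n = 4). A probe was kept when well above background in 6 of 8 channels of a genotype (34594 of 56605), and a gene was its brightest kept probe. Names came from RefSeq accessions of GRCm38.p6 (32994 probes). A two-sided limma test against 0, with moderated variances, was run on 16013 genes, with p-values adjusted by Benjamini-Hochberg. Levels used Aquantile. All arrays shared 1 slide, so the fit could hold no slide block. The fit was tested on simulated data.

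The members and lists were chosen with earlier results of these data known. The naming rule took all members, the 3 genes with the smallest p of each further list, and the 3 genes closest in level to Ren1 and Mme. The design foresaw median or mean signals, and median signals were used. The pair is part of every ratio; the fits with and without the pair as a block are in the closing section.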

Additional observations from a re-analysis of the deposited data

Results flagged for a closer look

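The mutant RNA of pair 1 had a log2 level of 8.07 for Ren1, far from the other mutant RNAs at 7.17, 7.17 and 7.19, by Dixon's test at the 95% level (gap over range 0.978). Among the 36 groups of 4 values examined this was the only one, and chance gives about 1 in 20.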

How the results depend on the processing

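No member passed an adjusted p of 0.05 under any of the 17 alternatives run, and the ratios of Mme (0.22 to 0.61), Agtr1b (0.17 to 0.60, with 16 alternatives), Agtr2 (0.07 to 0.39) and Bdkrb2 (0.03 to 0.13) stayed above 0 in all of them. No alternative took the second Mme probe (mean 0.19) on its own. Median centring in place of loess, which moved the median of all genes to 0.14, called 42 genes, gave 5 members with 1 sign in every pair, 6 further pathway genes higher and 1 lower in every pair (median 0.16), 12 lineage genes higher (median 0.21), and Ace at -0.0024. With all 16 channels above background, with probes averaged or on Cy3-mutant arrays alone, 1 member had 1 sign in every pair. Averaged probes gave 1 lineage gene lower in every pair. On Cy5-mutant arrays alone the members' median was 0.24, 1 further pathway gene and 4 lineage genes were lower in every pair, and Ace was at -0.0024. On Cy3-mutant arrays alone 2 lineage genes were lower, Agtr1a was at -0.062 and Bdkrb1 at 0.062. The pair as a random replicate block over 8 arrays, with a correlation of -0.586 between the Cy5 over Cy3 ratios of a pair's opposite dye orientations, called 39 genes, with Mme at an adjusted limma p of 0.160, and unpaired RNA levels called 6. With the sex difference as a covariate Ace was at -0.0064 and Ren1 at -0.038. With 1 pair left out, the members' median ran from 0.09 to 0.19, that of the further pathway genes from 0.0038 to 0.07 and that of the lineage genes from 0.031 to 0.10. The members with 1 sign numbered 2 to 5, further pathway genes higher 3 to 6 and lower 3 to 4, and lineage genes higher 7 to 10 and lower 0 to 2. Ace ran from -0.027 to 0.060, Ren1 from -0.021 to 0.28 and Bdkrb1 from -0.11 to 0.0020. The number of pairs limits precision, and Agt and Agtr1b are limited by signal near background. The standard errors of Ren1, Ace and Bdkrb1 also depended on how background was removed. They were 0.14, 0.07 and 0.07 as reported and 0.26, 0.10 and 0.105 in Agilent's processed signals.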
